A study of Homo sapiens with 6 samples.

Results

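The zinc finger genes described here were the rows of the deposited count table on chromosome 19 that were annotated as protein coding and carried a ZNF name with a number, 249 of the 58735 genes in the table. The rule uses name, biotype and position alone, though it was set with earlier results of these data known. The cells were 786-O, an established human line of clear cell renal carcinoma that lacks functional VHL, and no other line was used. In 3 libraries the cells carried a hairpin aimed at CBX7 (sh-CBX7), and in 3 a control hairpin (sh-Control), and poly-A RNA was read in both. Separate cultures are not mentioned in the labels, and each p-value therefore reflects the spread among the libraries as made, possibly technical alone. CBX7 belongs to those chromobox proteins that read histone methylation for Polycomb complexes.

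Zinc finger proteins of this family read DNA with tandem fingers, each a short fold held by a pair of cysteines and a pair of histidines around a zinc ion. Most members of the chromosome 19 clusters also carry a KRAB box near the start of the protein. The KRAB box binds TRIM28, which brings in the histone methyltransferase SETDB1 and HP1 proteins, and the bound chromatin gains H3K9 methylation and falls silent. Many of these proteins bind transposable elements, and the clusters grew by tandem duplication, so neighbours resemble each other in sequence.

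Translated from GENCODE 29 coding sequences, the 249 proteins had a median of 12 fingers (range 0 to 36) and a median length of 577 residues. A KRAB box was matched in 211 and not in 38, and 2 of the 38, ZNF444 and ZNF446, matched a SCAN domain, a module for protein pairing. Runs of members less than 1 Mb apart formed 16 blocks, 5 on the short arm with 85 members and 11 on the long arm with 164. The blocks with at least 5 tested members were block 2 (ZNF557 to ZNF846, 16 members), block 3 (ZNF653 to ZNF791, 26), block 5 (ZNF101 to ZNF254, 37), block 8 (ZNF302 to ZNF792, 5), block 9 (ZNF565 to ZNF573, 26), block 12 (ZNF575 to ZNF296, 24), block 15 (ZNF175 to ZNF331, 40) and block 16 (ZNF628 to ZNF446, 59).

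The promoters of members shared sequence that other promoters rarely held. RefSeq promoters on GRCh38.p14, running from 250 bases before to 50 after the gene start, were found for 217 members. Of all 10-base sequences, read on both strands, TCCAATCAGG had the largest excess in members over other protein-coding genes. It stood in 44 of 217 member promoters (20.3%), against 31 of 14679 others (0.211%) and 0.503% of all 14896. It holds a CCAAT box, the sequence that the factor NF-Y binds. CCAAT alone, which the 10 bases contain, stood in 53.9% of member promoters and 36.1% of the others. All 44 members lay on the short arm, 26 of 29 promoters in block 5, 15 of 25 in block 3 and 3 of 5 in block 1 (ZNF554 to ZNF77), and 41 of the 44 encoded a KRAB box. In 43 it read in the direction of the gene, and the first copy of each of the 44 lay at a median of 49 bases before the start. In 9 of the 44 it stood more than once. The next 6 lines give up to 45 bases on each side of its first copy, 5′ to 3′ on the gene's strand, with every copy of the shared 10 bases in capitals. ZNF93 and ZNF626 each show 2 copies. The first 4 are the holders of at least 1 CPM with the largest rise, and ZNF431 and ZNF626 are the uncalled holders of at least 1 CPM nearest to no change.
ZNF93: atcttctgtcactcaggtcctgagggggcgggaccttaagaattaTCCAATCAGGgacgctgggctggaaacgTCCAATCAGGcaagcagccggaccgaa
ZNF681: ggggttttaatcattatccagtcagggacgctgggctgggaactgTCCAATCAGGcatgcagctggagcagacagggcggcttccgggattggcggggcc
ZNF77: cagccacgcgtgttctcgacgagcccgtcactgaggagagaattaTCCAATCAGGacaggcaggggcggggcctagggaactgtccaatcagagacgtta
ZNF433: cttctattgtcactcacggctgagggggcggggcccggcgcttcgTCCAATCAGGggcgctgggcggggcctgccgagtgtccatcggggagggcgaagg
ZNF431: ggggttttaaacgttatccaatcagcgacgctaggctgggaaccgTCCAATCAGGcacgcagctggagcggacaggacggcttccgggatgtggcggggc
ZNF626: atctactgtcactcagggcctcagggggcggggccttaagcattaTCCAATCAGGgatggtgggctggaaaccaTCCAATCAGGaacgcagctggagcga
These stretches lay at chr19:19900816-19900915 on the plus strand for ZNF93, chr19:23758895-23758994 on the minus strand for ZNF681, chr19:2945113-2945212 on the minus strand for ZNF77, chr19:12035690-12035789 on the minus strand for ZNF433, chr19:21141936-21142035 on the plus strand for ZNF431 and chr19:20661604-20661703 on the minus strand for ZNF626.

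The same search over the 143 promoters of the long arm gave a different sequence, CTGGGAAATG, which stood in 21 of them (14.7%), in 0 of 74 on the short arm, in 76 of 14679 other promoters (0.518%) and in 0.651% of all. Of the 21, 8 were in block 9, 6 in block 12, 3 in block 16, 2 in block 8, and 1 each in blocks 10 and 15. It read in the direction of the gene in 12 and against it in 9, at a median of 56 bases before the start. The next 3 lines show it in capitals for the holders of at least 1 CPM with the largest rise, ZNF256 and ZNF302, and for ZNF234, the uncalled holder of at least 1 CPM nearest to no change. No tested holder was called lower.
ZNF256: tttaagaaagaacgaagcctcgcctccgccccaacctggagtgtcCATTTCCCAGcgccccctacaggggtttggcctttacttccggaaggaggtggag
ZNF302: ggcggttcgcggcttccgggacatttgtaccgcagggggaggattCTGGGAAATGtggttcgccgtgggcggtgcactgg
ZNF234: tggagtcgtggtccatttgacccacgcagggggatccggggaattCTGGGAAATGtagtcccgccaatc
They lay at chr19:57947837-57947936 on the minus strand for ZNF256, chr19:34677598-34677677 on the plus strand for ZNF302 and chr19:44141485-44141553 on the plus strand for ZNF234. The sequence ran against the gene in ZNF256 and is printed there as its reverse complement.

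Libraries held 16473407 to 18868874 counts in sh-CBX7 and 16384151 to 18006814 in sh-Control, and members took 0.154% to 0.156% of them in sh-CBX7 against 0.121% to 0.128% in sh-Control. Libraries of a group differed beyond counting noise, most of all sh-Control replicates 1 and 2 (chi-square per gene 9.23). CBX7 (ENSG00000100307, chromosome 22) was lower in sh-CBX7, at 7.59, 6.70 and 8.01 CPM (counts scaled to a common, TMM-normalised library size), against 12.2, 13.2 and 11.2 CPM in sh-Control (log2 fold change -0.71, SE 0.13, edgeR adjusted p = 5.41e-05). Of 10 kidney and renal carcinoma markers, 9 were expressed, PAX8 among them, and NDUFA4L2 was near 0. None of 5 immune markers passed the filter on low counts, and PTPRC and CD3E were at 0 in all libraries. Of 4 endothelial markers 2, PECAM1 and KDR, passed, with CDH5 at 0, and the 4 summed to 3.89 to 5.03 CPM in sh-CBX7 and 2.18 to 3.11 CPM in sh-Control. Of 5 fibroblast markers 4 passed, and the 5 summed to 11.1 to 12.99 CPM in sh-CBX7 and 10.9 to 12.6 CPM in sh-Control. The part of these markers in the results was not tested.

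Far more zinc finger genes of chromosome 19 were called higher than lower in sh-CBX7. The low count filter kept 199 of 249 members. By edgeR's quasi-likelihood test, with p-values adjusted over all 14573 tested genes and called below 0.05, 91 of the 199 rose and 8 fell, while 100 were not called. Over all tested genes 26.1% were called higher and 27.2% lower, 53.3% in all. The median log2 fold change was 0.40 over tested members and -0.01 over all tested genes. Groups did not overlap for 116 members (58.3%), against 59.0% of all tested genes. Of the 100 uncalled members, 71 had a log2 fold change above 0, with a range of -0.76 to 0.75.

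The rises were modest. Their median was 0.72 on the log2 scale, or 1.64-fold, from 0.28 in ZNF738 to 1.80 in ZNF257, and 13 reached a log2 fold change of 1. Fewer low members were called, and their errors were larger. In the third of tested members with the lowest level (under 2.93 CPM) 17 of 66 were called higher and 0 lower, with a median SE of 0.29. In the third with the highest level (over 6.14 CPM) 40 of 67 were higher and 5 lower, with a median SE of 0.13. The median log2 fold changes of these parts were nonetheless close, 0.36 and 0.39.

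**Figure D1:**
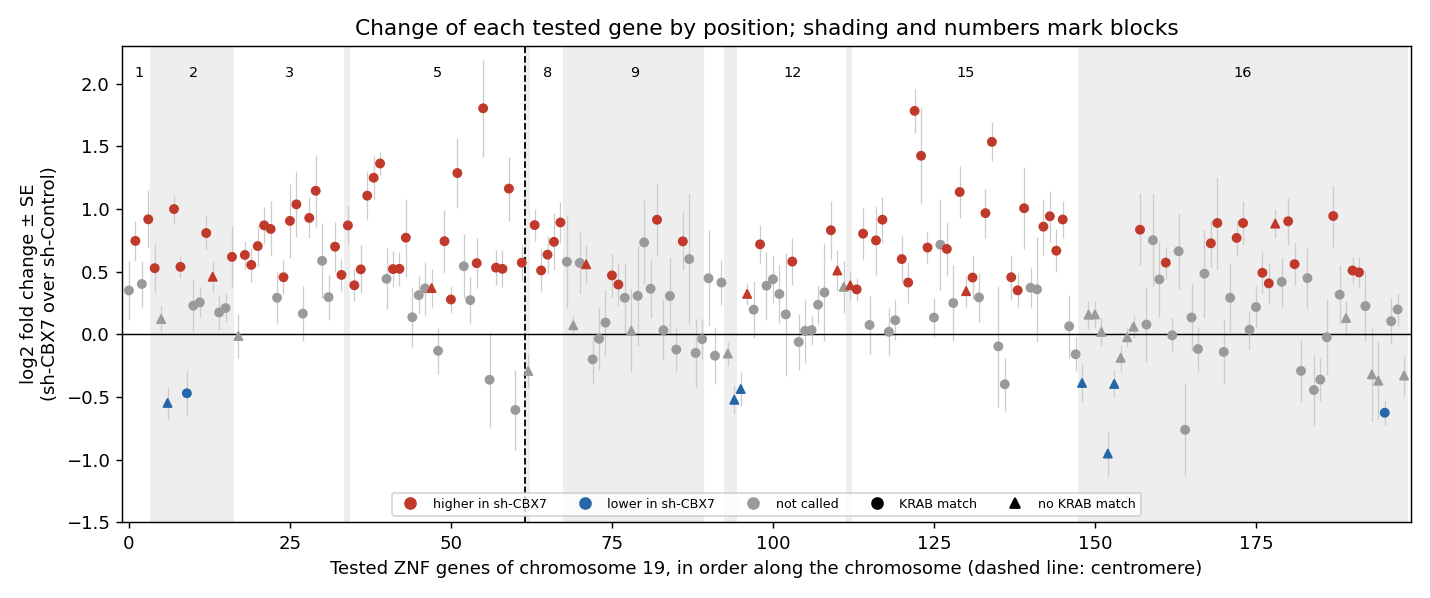
Log2 fold change (sh-CBX7 over sh-Control) with its SE for the 199 tested members in order along chromosome 19; red points were called higher, blue lower, grey not called, circles matched a KRAB box and triangles did not, and bands with numbers mark blocks. The 91 rises are spread over both arms, and 6 of the 8 falls are triangles.

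Of the 50 members that did not pass the filter, 14 had no counts and the highest single count was 21. Summed, the 50 had 143, 112 and 147 counts in the sh-CBX7 libraries and 86, 112 and 90 in the sh-Control libraries. Among tested members, 5 reached the filter's level of 0.578 CPM in each library of sh-CBX7 only, 3 of which were called higher, and 3 did so in sh-Control only. Those called higher included ZNF257 and ZNF836, and the filter favoured a rise in such members. With no filter, 235 members entered the fit, 85 were called higher and 6 lower, and the median log2 fold change was 0.39.

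Most of the rises were in members with a KRAB box, and so were most of the tested members. Of 168 tested KRAB members 83 were higher (49.4%) and 2 lower (1.19%), with a median log2 fold change of 0.45. Of 31 tested members without a match 8 were higher (25.8%) and 6 lower (19.4%), with a median of 0.03, near that of all tested genes. The shares over all tested genes were 26.1% higher and 27.2% lower, so without a match the share of rises was near the background. KRAB members took 0.0993%, 0.104% and 0.102% of counts in the sh-CBX7 libraries, against 0.0681%, 0.0768% and 0.0749% in the sh-Control libraries, and these ranges did not overlap. Members without a match took 0.0549%, 0.0520% and 0.0529% in sh-CBX7 and 0.0530%, 0.0510% and 0.0518% in sh-Control, ranges that overlapped. No test of the difference between these classes was made.

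**Figure D2:**
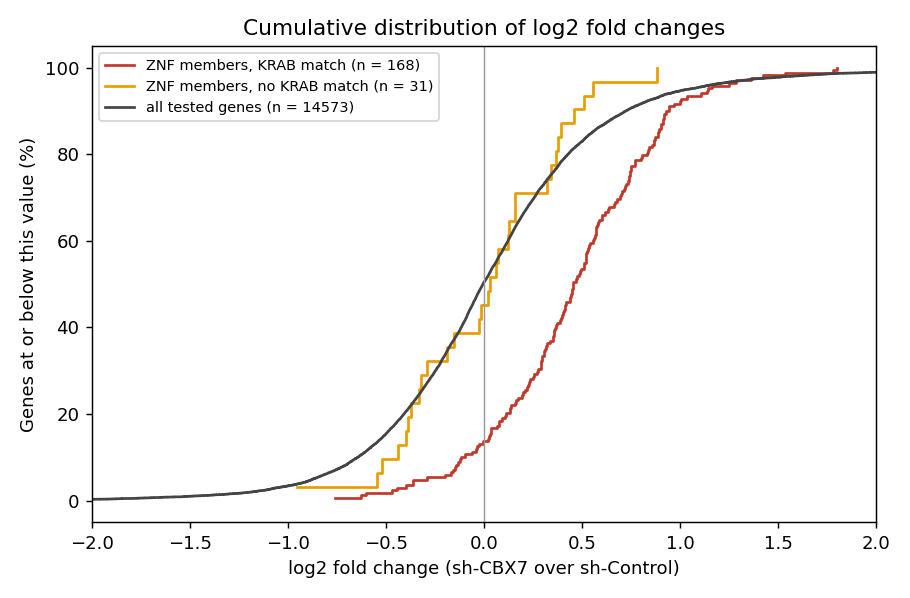
Cumulative share of genes (vertical, %) at or below each log2 fold change (horizontal, sh-CBX7 over sh-Control) for 168 KRAB members, 31 members without a KRAB match and all 14573 tested genes. The KRAB curve lies to the right, with a median of 0.45, and the curve without a match stays near that of all genes, with a median of 0.03.

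KRAB members with few and with many fingers had similar values. The median log2 fold change was 0.51 in 23 KRAB members with up to 8 fingers, 0.48 in 103 with 9 to 15 and 0.42 in 42 with 16 or more. Of them 11 (47.8%), 51 (49.5%) and 21 (50%) were called higher. For these counts and those by GC content below, the shares over all tested genes were 26.1% higher and 27.2% lower. Base composition differed between the classes: transcripts of tested KRAB members had a median GC content of 41.7% and those of members without a match 59.6%, against 48.2% over all tested genes. Among the 50 tested members richest in GC, 12 of 28 KRAB members (42.9%) were higher and 1 lower (median 0.47). Of the 22 without a match, 2 (9.09%) were higher and 6 (27.3%) lower (median -0.09), a share of falls near that of all tested genes. GC content still differed there, at medians of 47.55% and 62.6%. In the 50 poorest in GC, 19 of 47 KRAB members (median 0.41) and 2 of 3 without a match (0.37) were higher, and 0 lower. In the next 49, 23 of 44 (0.49) and 3 of 5 (0.34) were higher, with 1 KRAB member lower. In the next 50, 29 of 49 (0.53) and 1 of 1 (0.88) were higher, and 0 lower. Whether class or GC content went with the difference was not tested. All tested genes with a GC content between the quartiles of the members, 39.7% to 45.8%, had a median of 0.03, with 27.7% called higher and 25.8% lower. With a trend of log2 counts on gene length and GC content removed, 81 members were higher and 11 lower, and their median was 0.35.

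Along the chromosome, the 62 tested members of the short arm had a median log2 fold change of 0.52, with 39 higher and 2 lower, and the 137 of the long arm had 0.35, with 52 higher and 6 lower. In block 3 12 of 17 tested members rose and in block 5 18 of 27, and 0 fell in either. In block 15 22 of 35 rose and 0 fell, and in block 8 all 5 rose. Calls were fewer in block 9 (5 of 22 or 22.7% higher, 0 lower, median 0.31) and block 12 (5 of 17 or 29.4% higher, 1 lower, median 0.32). These shares of rises were near the 26.1% of all tested genes. The shares were 70.6% in block 3, 66.7% in block 5 and 62.9% in block 15. Falls made up 27.2% of all tested genes. In block 2, 6 of 13 (46.2%) were higher and 2 (15.4%) lower, with a median of 0.25. Block 16, at the end of the long arm, had 14 of 51 (27.5%) higher, also near the share of all tested genes, and 4 (7.84%) lower (median 0.16). Taken with a gap of 0.5 Mb, its first 14 tested members (ZNF628 to ZNF835) held 2 rises and 3 falls with a median of 0.07, and the other 37 (ZNF264 to ZNF446) held 12 rises and 1 fall with a median of 0.22. Block 16 is also where 14 of the 31 tested members without a KRAB match lay, with 1 higher, 3 lower and a median of -0.11, beside 37 KRAB members with 13 higher, 1 lower and a median of 0.41.

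Rises came with and without the shared promoter sequences, and no test compared the classes. In blocks 1, 3 and 5, 21 of 32 tested members with TCCAATCAGG were higher and 0 lower (median 0.52), and 8 of 13 without it were higher and 0 lower (median 0.74). Beyond the members, 23 other tested genes held it, with 8 higher (34.8%), 4 lower (17.4%) and a median of 0.34. Over all tested genes 26.1% were higher and 27.2% lower. Of the 23, 12 had a log2 fold change above 0 (52.2%), against 49.5% of all tested genes. On the long arm 8 of 19 tested members with CTGGGAAATG were higher and 0 lower (median 0.40), beside 41 higher and 6 lower of 102 without it (median 0.33).

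**Figure D3:**
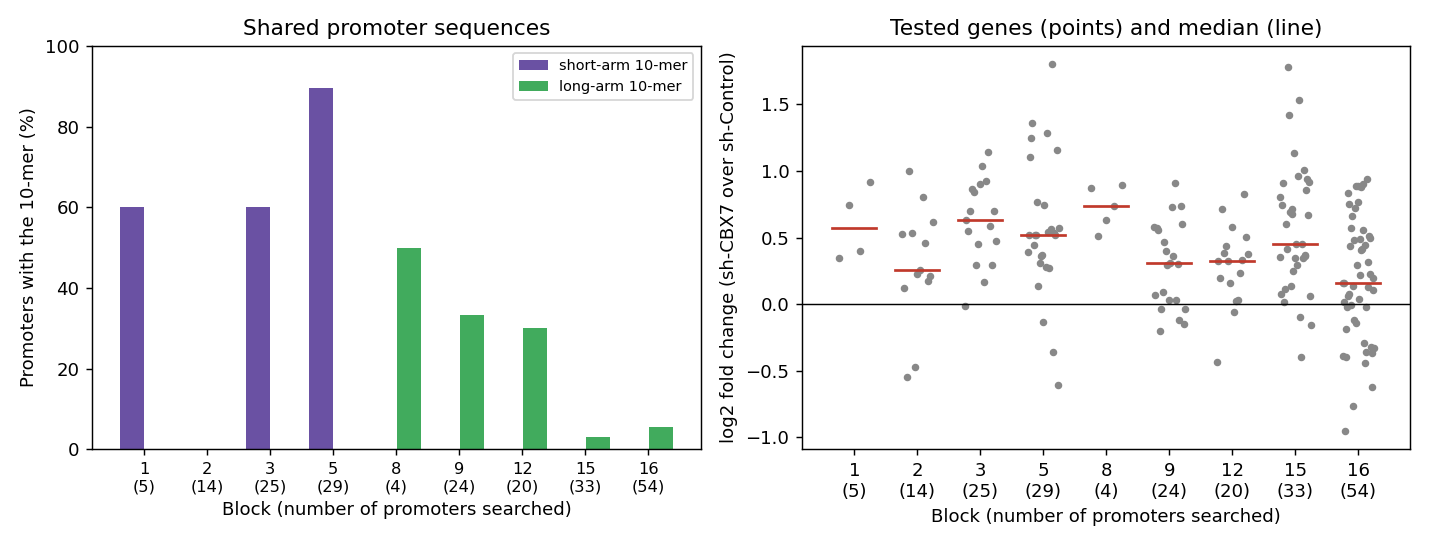
Left, share of promoters (%) holding the short-arm 10-mer (purple) or the long-arm 10-mer (green) in each block with at least 4 promoters; right, log2 fold change (sh-CBX7 over sh-Control) of each tested member, with the block's median as a line. The short-arm sequence reaches 26 of 29 promoters in block 5 and 0 of 33 in block 15, while the medians are 0.52 and 0.45.

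The members that rose furthest lay in 3 blocks. Of the 13 with a log2 fold change of at least 1, 6 lay in block 5, 5 in block 15 and 2 in block 3. All of the 10 described next encode a KRAB box. So did 26 of 27 tested members in block 5, 34 of 35 in block 15 and 16 of 17 in block 3. In block 15, ZNF616 (ENSG00000204611, GRCh38 chr19:52113091-52139922, minus strand) had 9.07, 8.94 and 8.92 CPM in sh-CBX7, against 2.04, 2.36 and 3.44 CPM in sh-Control. The sh-CBX7 libraries were nearly level and all above the highest sh-Control library. Its log2 fold change was 1.78 (SE 0.18, edgeR adjusted p = 1.54e-08). ZNF836, the next tested member along the map (chr19:52153864-52171643), was near the floor, with 2.07, 0.906 and 1.75 CPM in sh-CBX7 against 0.541, 0.550 and 0.675 CPM in sh-Control. Its log2 fold change of 1.42 carried an SE of 0.39 (edgeR adjusted p = 0.00369). ZNF836 reached the filter's level of 0.578 CPM in each library of sh-CBX7 only, so the filter favoured a rise. ZNF468 (chr19:52838008-52890375) had 10.9, 9.84 and 9.82 CPM in sh-CBX7 and 2.76, 3.85 and 3.93 CPM in sh-Control (1.53 on the log2 scale, SE 0.16, edgeR adjusted p = 2.36e-08). It overlaps ZNF28 and ZNF320 on the same strand, so its reads and theirs may be shared. ZNF701 had a log2 fold change of 1.13 (SE 0.21) and overlaps ZNF808, which was not called (0.25).

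In block 5, ZNF93 (ENSG00000184635, chr19:19900913-19963464, plus strand) gave the rise with the smallest SE of the 10. Its protein binds and represses L1 retrotransposons. ZNF93 had 37.4, 34.8 and 35.6 CPM in sh-CBX7, against 13.1, 15.01 and 13.8 CPM in sh-Control, so that the groups lay far apart beside their spread. The log2 fold change was 1.36 (SE 0.09, edgeR adjusted p = 4.11e-11), the smallest p of any member in the block. Its neighbour ZNF253 (chr19:19865886-19894674) had 6.95, 6.04 and 6.55 CPM in sh-CBX7 and 2.95, 2.58 and 2.70 CPM in sh-Control (log2 fold change 1.25, SE 0.17). ZNF257, with the largest fold of all tested members, was with ZNF836 the faintest of the 10: 1.17, 2.29 and 1.75 CPM in sh-CBX7 and 0.421, 0.440 and 0.614 CPM in sh-Control (log2 fold change 1.80, SE 0.39, edgeR adjusted p = 0.000465). Like ZNF836, ZNF257 reached the filter's level in each library of sh-CBX7 only, so the filter favoured a rise. ZNF493 rose by 1.29 (SE 0.28) and ZNF681 by 1.16 (SE 0.26) on the log2 scale. ZNF681 varied widely in sh-Control, at 1.08, 2.97 and 1.90 CPM, below the 4.03, 4.89 and 4.57 CPM of sh-CBX7. ZNF563 of block 3 completed the 10 with 1.14 (SE 0.29).

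**Figure D4:**
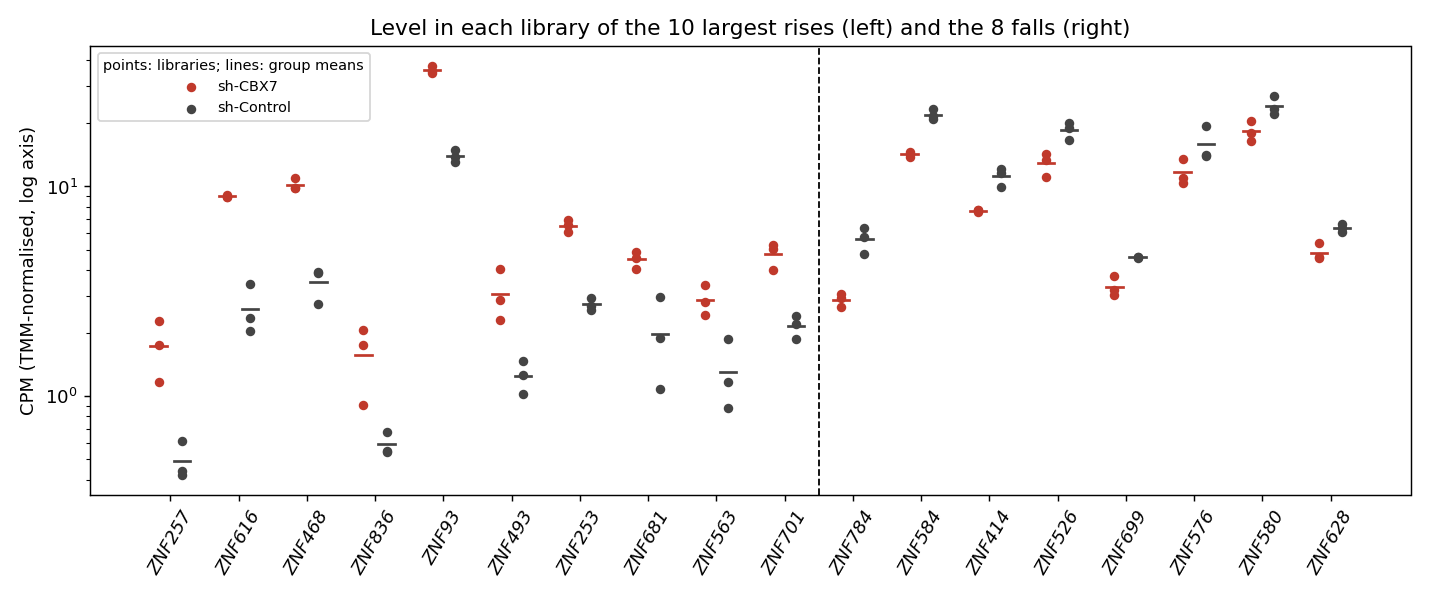
Level in CPM (vertical, log axis) of the 10 largest rises, left of the dashed line, and the 8 falls, right of it, with sh-CBX7 in red to the left of sh-Control in dark grey for each gene; points are libraries and lines group means. Non-overlap of the groups was part of how these genes were picked, and held for 59.0% of all tested genes. ZNF257 and ZNF836 reached the filter's level in each library of sh-CBX7 only. The levels run from under 1 CPM in ZNF257 to 37.4 CPM in ZNF93.

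The rises with the smallest p in other blocks were of up to 2.00-fold. ZNF558 in block 2 had 19.7, 19.9 and 17.1 CPM in sh-CBX7 and 8.96, 9.57 and 9.82 CPM in sh-Control, with groups apart (log2 fold change 1.00, SE 0.11, edgeR adjusted p = 1.20e-07). ZNF302 in block 8 had 16.6, 19.6 and 16.3 CPM in sh-CBX7 and 8.41, 8.85 and 11.4 CPM in sh-Control (log2 fold change 0.87, SE 0.13). ZNF134 in block 16, which has no KRAB match, had 19.3, 18.96 and 17.9 CPM in sh-CBX7 and 9.26, 9.68 and 11.6 CPM in sh-Control (log2 fold change 0.88, SE 0.11). The other rises with the smallest p of their block were those of ZNF440 in block 3 (0.87), ZNF45 in block 12 (0.72) and ZNF260 in block 9 (0.56), a factor made almost wholly of fingers.

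Some members have a function on record, and these were picked for that after their values were seen. ZNF91, which represses SVA retrotransposons, had 10.2, 9.54 and 9.82 CPM in sh-CBX7 and 5.59, 7.53 and 7.30 CPM in sh-Control (log2 fold change 0.53, SE 0.14, edgeR adjusted p = 0.0025). ZNF274, which recruits SETDB1 to the 3′ ends of zinc finger genes themselves, had 19.2, 23.2 and 21.2 CPM in sh-CBX7 and 15.4, 14.7 and 14.5 CPM in sh-Control (log2 fold change 0.51, SE 0.10, edgeR adjusted p = 0.000288). ZNF350, a partner of BRCA1 in repression, rose by 0.91 on the log2 scale (SE 0.18). ZNF675, an inhibitor of TRAF6 signalling, rose by 0.52 (SE 0.15). ZNF473, needed for the processing of histone pre-mRNA, rose by 0.39 (SE 0.12). In each of these 5 every sh-CBX7 library was above every sh-Control library, while groups did not overlap for 59.0% of all tested genes. ZNF331, an imprinted gene, was not called (-0.16).

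The 8 falls were led by ZNF784, with 3.08, 2.66 and 2.94 CPM in sh-CBX7 against 6.31, 5.72 and 4.79 CPM in sh-Control (log2 fold change -0.95, SE 0.18, edgeR adjusted p = 0.000126). ZNF584 (chr19:58401504-58418327), a KRAB member, had 13.9, 14.7 and 14.3 CPM in sh-CBX7 and 21.0, 21.8 and 23.3 CPM in sh-Control (log2 fold change -0.63, SE 0.10). Groups were apart in both. ZNF414 fell by 0.55, ZNF526 by 0.52, ZNF576 by 0.44 and ZNF580 by 0.40 on the log2 scale. ZNF580 overlaps ZNF581 and CCDC106 on the same strand. ZNF699 (-0.47) and ZNF628 (-0.39) were the weakest falls: without any 1 of 5 libraries, all but sh-CBX7 replicate 3, their adjusted p lay between 0.0514 and 0.108. With all 6 libraries both calls were also lost under upper quartile factors (adjusted p = 0.0537 for ZNF699 and 0.0678 for ZNF628), with no filter on low counts (0.0502 and 0.0630) and in DESeq2 (0.0822 and 0.0936). ZNF576 lost its call without sh-CBX7 replicate 2 (adjusted p = 0.0585) or sh-Control replicate 1 (log2 fold change -0.26, adjusted p = 0.0773).

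The 6 members most abundant for their length changed little. Ranked by CPM per kilobase of the gene length in the table, the first 6 were ZNF787, ZNF581, ZNF428, ZNF146, ZNF358 and ZNF524, and 0 of them had a KRAB match. ZNF581 stood at a length-scaled level of 16.2 in sh-CBX7 and 18.5 in sh-Control, and ZNF428 at 17.5 in sh-CBX7 and 14.0 in sh-Control. Only ZNF428 of the 6 was called, at 30.1, 32.4 and 32.3 CPM in sh-CBX7 and 25.9, 22.9 and 27.1 CPM in sh-Control (log2 fold change 0.32, SE 0.09). ZNF146, a protein of fingers alone, had 64.5, 68.1 and 63.9 CPM in sh-CBX7 and 55.8, 67.2 and 63.9 CPM in sh-Control, which overlap (0.07, SE 0.07). ZNF581 (-0.19), ZNF358 (0.12) and ZNF524 (0.16) also overlapped between groups, though ZNF358 passed the test without sh-Control replicate 1 (0.23, edgeR adjusted p = 0.0468). ZNF581 passed it without sh-CBX7 replicate 1 (-0.30, adjusted p = 0.0322), without sh-Control replicate 2 (-0.28, adjusted p = 0.0266), with the replicate block (-0.19, adjusted p = 0.0452) and with the length and GC trend removed (-0.23, adjusted p = 0.0263). Nearest to no change among uncalled members of at least 5 CPM were ZNF264 (-0.01, SE 0.14), ZNF865 (0.02, SE 0.12) and ZNF787 (-0.02, SE 0.08).

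ZNF genes of other chromosomes were also called higher more than lower. Of 265, 219 were tested, 69 were higher (31.5%) and 19 lower (8.68%), and their median log2 fold change was 0.15. Over all tested genes 26.1% were higher and 27.2% lower, so the share of falls differed more from the background than that of rises. The other 1223 protein-coding genes of chromosome 19 had 674 tested, 176 higher (26.1%) and 207 lower (30.7%), near the shares of all tested genes. Their median was -0.03 and their median GC content 60.2%. No test compared these groups with the members.

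Genes of the KRAB silencing pathway included both rises and falls. The list held 30 cofactors and genes of H3K9 or DNA methylation, of which 28 were tested, 4 rose, 8 fell and 16 were not called (median log2 fold change -0.05). Thus 14.3% were higher and 28.6% lower, against 26.1% and 27.2% of all tested genes, so the share of falls was near the background. TRIM28, the KRAB corepressor, lies 63 kb beyond the last member of block 16. It had 267, 251 and 259 CPM in sh-CBX7 against 475, 394 and 422 CPM in sh-Control, with no overlap (log2 fold change -0.73, SE 0.06, edgeR adjusted p = 1.32e-09). SETDB1 fell by 0.44 (SE 0.10) and CBX5, the HP1 alpha protein that reads H3K9 methylation, by 0.42 (SE 0.07), whereas the other HP1 genes CBX1 (0.07) and CBX3 (-0.08) were not called. SUV39H1, a further H3K9 methyltransferase, fell by 0.76 (SE 0.11).

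DNMT1, the maintenance DNA methyltransferase, had 65.6, 65.9 and 71.0 CPM in sh-CBX7 and 140, 145 and 142 CPM in sh-Control (log2 fold change -1.07, SE 0.06, edgeR adjusted p = 1.53e-12). UHRF1, which guides DNMT1 to newly made DNA, fell by 0.85 (SE 0.07). Both lie on chromosome 19 as well. The histone chaperones RBBP4 and DAXX rose by 0.74 (SE 0.07) and 0.28 (SE 0.06). ATF7IP, the partner of SETDB1 (-0.24), and the HUSH subunits MPHOSPH8 (-0.05) and FAM208A (-0.02) were not called. SETDB1, DAXX and the uncalled genes given here were picked after their values were seen. Whether these levels bear on those of the zinc finger genes was not tested.

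**Figure D5:**
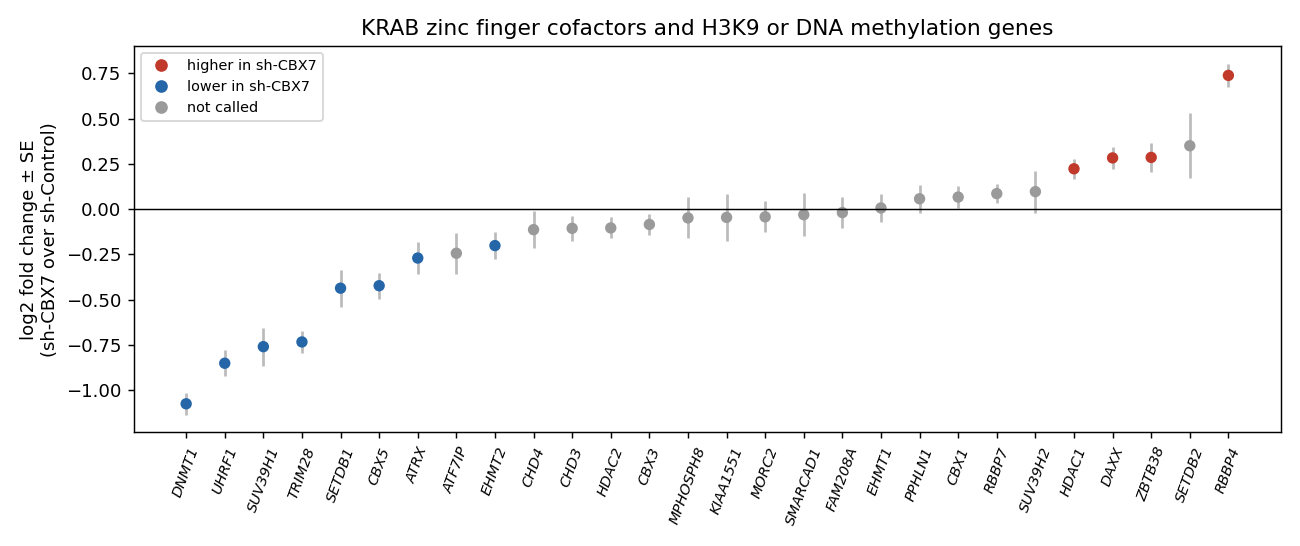
Log2 fold change (sh-CBX7 over sh-Control) with its SE for the 28 tested genes of the KRAB silencing list, in rising order; blue points were called lower, red higher and grey not called. DNMT1, UHRF1, SUV39H1 and TRIM28 lie lowest, from -1.07 to -0.73, and RBBP4 highest at 0.74.

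Counting limits apply to all members. Close paralogs can exchange or lose reads, and the strand setting of the counting is not given in the sources used here, so reads of overlapping and antisense genes could not be told apart. Of the tested members 59 overlapped no other gene in the table, and among these 29 were higher (49.2%) and 3 lower (5.08%), with a median log2 fold change of 0.44. The shares over all tested genes were 26.1% higher and 27.2% lower. This count does not address reads exchanged between paralogs. In bulk RNA, fewer cells with a transcript and less of it per cell cannot be told apart.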

How the data were processed

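The authors deposited a table of read counts per gene, whole numbers with no normalization. The tools named are featureCounts 1.5.0-p3, HISAT2 2.0.5, Trimmomatic and FastQC, with hg19 as build, per the submitters' processing notes. Gene positions nevertheless matched GENCODE 29 for GRCh38 at all 58735 genes, and GRCh38 is used here. Columns named siCBX7 were matched to the libraries labelled sh-CBX7 by target and replicate number.

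Genes were filtered with filterByExpr, scaled with TMM and compared without pairing by glmQLFit and glmQLFTest of edgeR 4.0.16 (R 4.3.3), with Benjamini-Hochberg adjustment over 14573 genes. The SE is the log2 fold change divided by the root of F. CPM are TMM-normalised. The test was also run on data simulated for the same genes, with means and dispersions taken from the main fit. The outcome is not given here. Within groups, the chi-square per gene between libraries was 2.85 to 9.23, above sampling noise, so each was kept as 1 sample.

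KRAB boxes and fingers were found by pattern in translated GENCODE 29 coding sequences (1 transcript a gene), in place of the RefSeq proteins first planned. Promoters came from RefSeq. Named genes follow a rule: CBX7; called members of at least 1 CPM with groups apart, the 10 largest changes each way; the 6 highest per length; the smallest p in each direction per block of at least 5 tested; 6 pathway genes; 3 uncalled nearest 0. Other genes were chosen after their values were seen, and those with promoters by the choice stated there. Members and lists were chosen with earlier results of these data known. Alternatives were other scalings, filters, DESeq2 1.42.0, limma voom (3.58.1), a replicate block, length and GC correction, and leaving out each library.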

Additional observations from a re-analysis of the deposited data

How the results depend on the processing

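Under 15 alternatives the members called higher numbered 74 to 98 in place of 91 and those called lower 6 to 11 in place of 8. Their median log2 fold change, 0.40, was 0.45 with upper quartile factors and 0.35 with the length and GC trend removed, and 0.35 to 0.43 without 1 library, lowest without sh-Control replicate 1. Without 1 library 74 to 94 members were higher and 6 to 9 lower; 61 of the 91 and 5 of the 8 were called in all 6 such fits. The CBX7 log2 fold change lay between -0.77 and -0.61. Of 38 other named genes, 32 kept their call under all 15, ZNF836 kept it under the others but was removed by the filter of 1 CPM in 3 libraries, and ZNF358, ZNF576, ZNF581, ZNF628 and ZNF699 changed under at least 1 setting; the cause was not tested. With the replicate block 94 members were higher and 10 lower. Libraries of 1 number shared deviations at correlations of 0.0553, 0.0614 and 0.0353, those of different numbers at -0.0474 to -0.00888, so each correlated best with its own number, weakly. Deviations were taken from the group means, so the negative values follow in part from the positive ones. No label ties a number to a batch or day, so libraries were not taken as pairs.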

Other observations

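Non-coding genes with a ZNF name on chromosome 19 were not among the members. Of 32, 11 were tested, edgeR called 6 higher (54.5%) and 0 lower, and the median log2 fold change was 0.52. The shares over all tested genes were 26.1% higher and 27.2% lower. The pseudogene ZNF702P rose most, to 9.30 ± 0.65 CPM in sh-CBX7 against 2.56 ± 0.40 CPM in sh-Control (SD, n = 3 each; log2 fold change 1.87, SE 0.17). ZNF528-AS1 had 3.35 ± 0.61 CPM in sh-CBX7 and 1.46 ± 0.44 CPM in sh-Control (1.21, SE 0.26), and ZNF433-AS1 11.8 ± 0.96 and 8.21 ± 0.60 CPM in the same order (0.52, SE 0.12). Reads of the antisense genes and of ZNF528 and ZNF433, which were also called higher, could not be told apart.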
